A study of Mus musculus with 8 samples.

Results

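The genes described here encode the basal machinery of RNA polymerase I, the enzyme that copies the ribosomal DNA repeats into the precursor of ribosomal RNA. They are the 10 symbols Ubtf, Rrn3, Polr1a, Polr1b, Polr1c, Polr1d, Polr1e, Taf1a, Taf1b and Taf1c, chosen by name, out of 34976 symbols with usable values. The study measured RNA in late 2-cell embryos of the outbred mouse stock CF-1 with 8 libraries. In 4 libraries (Scr-MO) the embryos had received a scrambled control morpholino at the early 1-cell stage, and in the other 4 (Med13-MO) a morpholino that the labels place at the transcription start site of Med13, a subunit of the Mediator kinase module. Each library came from its own pool of 40 embryos, both groups were injected, and uninjected embryos are not analysed here. A morpholino is a synthetic antisense oligonucleotide that binds RNA without cutting it, so the gene itself is intact in both groups and the level of its RNA need not change. Each embryo at this stage holds RNA stored by the oocyte together with RNA made by its own genome.

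Polymerase I starts on ribosomal DNA when the upstream binding factor UBF (gene Ubtf) and the selectivity factor SL1 (TBP with TAF1A, TAF1B, TAF1C and TAF1D, and in some preparations TAF12) sit on the promoter. The initiation factor RRN3 (also called TIF-IA) then bridges SL1 and the polymerase. In mouse embryos ribosomal RNA synthesis is switched on during the 2-cell stage, when the compact nucleolus precursor bodies begin to form working nucleoli. Ribosomal RNA itself is not analysed here, so the values below are levels of the messenger RNAs for this machinery.

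The main change among the 10 genes was in Ubtf. The gene makes alternative proteins: UBF1 contains an exon whose 37 codons form part of the second DNA-binding HMG box, and UBF2 lacks it. This exon lies on the minus strand at chr11:102310926-102311036 (GRCm38, the same assembly as mm10), is 111 bases long, is coding over its whole length, and is present in 4 of the 9 Ubtf transcript models longer than 2500 bases in GENCODE M21. The sequences of 1 model with the exon and 1 without it are shown because the rows of both kinds of model were tested separately below. Capitals mark the exon, and the 21 bases on each side are from the neighbouring coding exons.
Ubtf-202: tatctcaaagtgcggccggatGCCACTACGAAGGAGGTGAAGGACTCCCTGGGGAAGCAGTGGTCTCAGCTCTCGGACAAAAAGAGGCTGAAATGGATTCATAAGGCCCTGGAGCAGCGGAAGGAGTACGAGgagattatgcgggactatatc
Ubtf-204: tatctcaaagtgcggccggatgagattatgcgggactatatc

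The 2 groups were checked on the targeted gene and on cell markers. Med13 RNA was 41.3 ± 4.31 FPKM (SD, n = 4) after Scr-MO and 42.2 ± 2.14 (n = 4) after Med13-MO, where FPKM is fragments scaled to transcript length and to the library total. The difference in mean log2(FPKM + 1) was 0.03 (two-sided exact permutation test over 70 assignments, p = 0.629, smallest possible p 0.0286), so the RNA level does not report on the knockdown. Library totals, worked out from the values with an assumed step of 0.5 fragments, were 31378977 to 48050262 fragments. All 11 markers of the 2-cell stage had a mean of at least 1 FPKM, with a summed level of 165 to 279 FPKM in the Scr-MO libraries and 265 to 573 in the Med13-MO libraries. All 10 markers of oocyte origin were also above 1 FPKM, with sums of 571 to 704 and 844 to 1061 FPKM. Dppa3 led these sums, with a mean of 547 FPKM over the 8 libraries. None of 10 cumulus and granulosa markers and none of 4 sperm markers with values reached a mean of 1 FPKM, and Amh and Foxl2 were below 0.05 FPKM in every library. Of 6 blood markers, Cd52 (1.13 FPKM) reached that mean, and of 6 oviduct markers 2 did, led by Epcam (26.5 FPKM), with sums of 24.7 to 35.2 FPKM after Scr-MO and 29.0 to 35.5 after Med13-MO. Of 6 morula and blastocyst markers Nanog reached it (3.76 FPKM), and their sums, 5.78 to 7.54 FPKM after Scr-MO and 4.17 to 5.06 after Med13-MO, did not overlap. The maternal marker sums, to which Dppa3 contributed most, did not overlap between the groups either, and the 2-cell sums overlapped only slightly. Single markers were not compared between the groups, and the part of these marker sets in the results below was not tested.

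A test across all 11755 genes with a mean of at least 1 FPKM (limma on log2(FPKM + 1), Benjamini-Hochberg adjusted p below 0.05) called 17.1% of genes, 9.29% higher and 7.81% lower after Med13-MO. All 10 polymerase I genes were tested. Of these, 1 was lower (Ubtf) and none was higher, so their share of calls was near the background of all genes. At an unadjusted p below 0.05 there were 3 (Ubtf, Polr1e and Taf1b), beside 32.4% of all genes. The log2 fold change (Med13-MO minus Scr-MO) was below 0 for 7 of the 10, with a median of -0.27. Over all genes tested 55.5% were below 0 and the median was -0.06. The 4 values of each group did not overlap for Ubtf and Taf1b, compared with 21.6% of all genes (11.1% lower and 10.4% higher after Med13-MO). The plot of members by library shows every value.

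**Figure D1:**
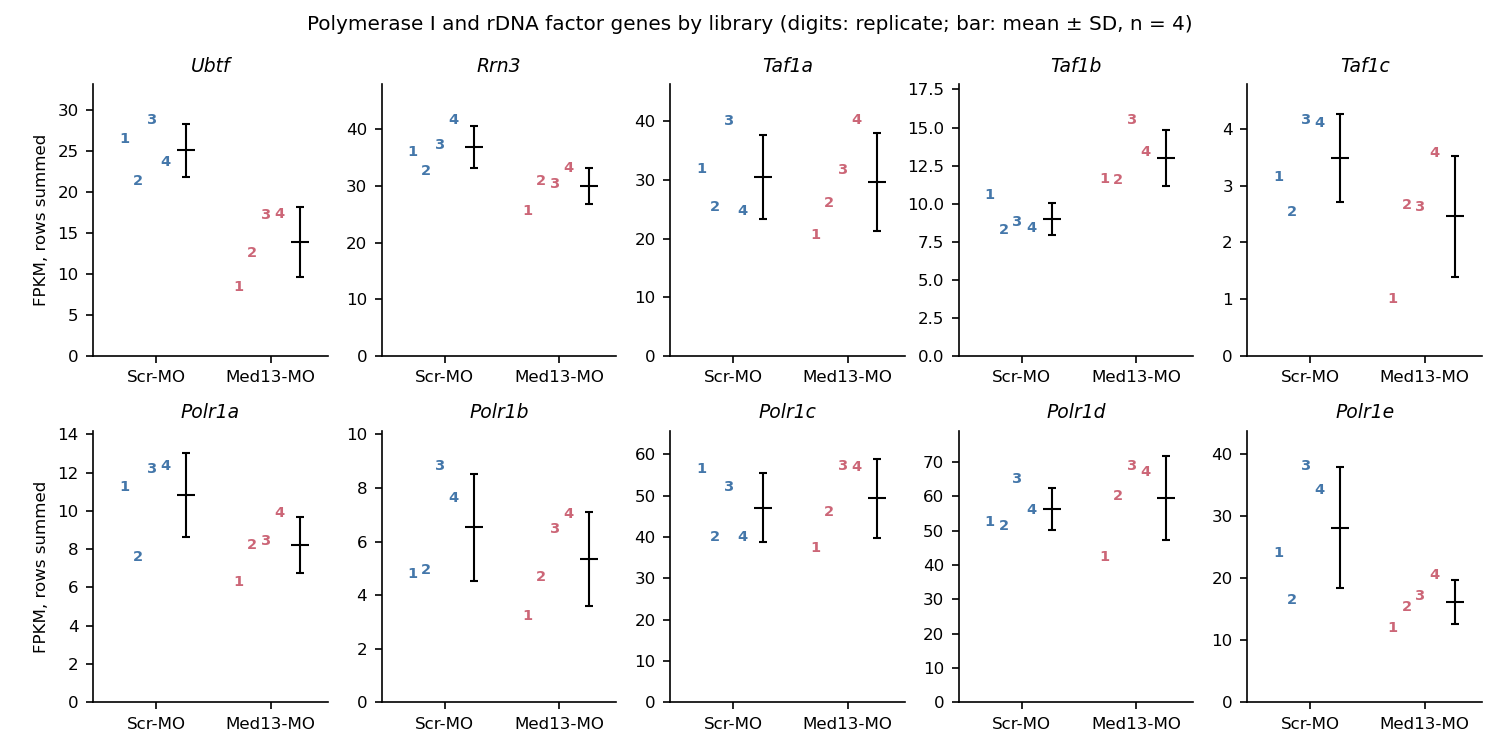
Summed FPKM of each of the 10 genes (vertical axes, linear from 0, scaled per gene) in the 4 Scr-MO libraries (blue digits) and 4 Med13-MO libraries (red digits). Each digit is the number given here to the library within its group, and the black bar is the mean ± SD. Only Ubtf and Taf1b have groups that do not overlap, Ubtf lower and Taf1b higher after Med13-MO.

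Ubtf (ENSMUSG00000020923, chr11:102304560-102319742, minus strand) fell. Its summed level was 26.5, 21.3, 28.8 and 23.7 FPKM in Scr-MO libraries 1 to 4 and 8.44, 12.6, 17.2 and 17.4 FPKM in Med13-MO libraries 1 to 4. The lowest control library stood above the highest Med13-MO library. The mean went from 25.1 ± 3.26 to 13.9 ± 4.25 FPKM (SD, n = 4 each). The log2 fold change was -0.85 ± 0.21 (SE; 95% interval -1.32 to -0.38; limma adjusted p = 0.0192). The direction held when each library was left out in turn, but the call was lost without Scr-MO library 3 (adjusted p = 0.0569) and without Med13-MO library 2 (adjusted p = 0.0609). In these bulk samples, fewer cells with the transcript and less transcript per cell cannot be told apart.

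Rrn3 (ENSMUSG00000022682, chr16:13780708-13814839, plus strand), the factor that makes the polymerase competent to initiate, did not pass the test. It measured 36.0, 32.6, 37.3 and 41.7 FPKM after Scr-MO and 25.7, 30.9, 30.3 and 33.2 FPKM after Med13-MO. The groups overlapped only through Med13-MO library 4 and Scr-MO library 2. The log2 fold change was -0.29 ± 0.15 (limma adjusted p = 0.208), with a 95% interval of -0.62 to 0.04. Ubtfl1, a UBF relative known from the preimplantation embryo, was 54.1 ± 5.49 FPKM after Scr-MO and 41.4 ± 3.35 after Med13-MO (log2 fold change -0.37, limma adjusted p = 0.101). Its groups did not overlap, as for 21.6% of all genes. Of the other settings, only sample weights called it lower (limma adjusted p = 0.0275).

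None of the 6 SL1 genes was called by limma after adjustment. At an unadjusted limma p below 0.05 there were 3 (Taf1b, Taf1d and Tbp), in both directions, beside 32.4% of all genes. Taf1b (ENSMUSG00000059669, chr12:24498359-24558539, plus strand), whose protein is related to the polymerase II factor TFIIB and contacts RRN3, was the highest of the 10 by fold change. It measured 10.6, 8.27, 8.79 and 8.38 FPKM after Scr-MO and 11.6, 11.5, 15.5 and 13.4 FPKM after Med13-MO. Every Med13-MO library was above every control library, yet the log2 fold change of 0.48 ± 0.16 missed the threshold (limma adjusted p = 0.0509). Taf1b was called under 5 of 16 other settings, among them both rescalings of the libraries, median-ratio size factors (adjusted p = 0.0304) and quantile normalization (adjusted p = 0.0251).

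Taf1a (chr1:183388981-183410198, plus strand), a small SL1 subunit, measured 31.8, 25.3, 40.0 and 24.7 FPKM after Scr-MO and 20.5, 26.1, 31.7 and 40.2 FPKM after Med13-MO. The ranges nearly coincided (log2 fold change -0.05 ± 0.22, limma adjusted p = 0.888). Taf1c (chr8:119597871-119605222, minus strand), the largest TAF of SL1, was the least abundant member. It measured 3.15, 2.54, 4.16 and 4.09 FPKM after Scr-MO and 0.994, 2.66, 2.62 and 3.57 FPKM after Med13-MO, and only Med13-MO library 1 lay clearly below the rest. Its log2 fold change was -0.42 ± 0.24 (limma adjusted p = 0.239). Of the exonic bases of Taf1c, 16.7% are shared with Dnaaf1 on the other strand, and since no source used here states whether counting used strand, its level may include that gene.

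The other SL1 genes stood on both sides of 0. Taf1d was 72.8 ± 7.97 FPKM after Scr-MO and 99.4 ± 13.8 after Med13-MO (log2 fold change 0.44, limma adjusted p = 0.082), and it was called higher with median-ratio (0.0360) or quantile (0.0224) scaling, with sample weights (0.0201) and without Med13-MO library 1 (0.0401). Tbp, which all 3 nuclear polymerases use, was 32.6 ± 6.20 and 24.6 ± 3.75 FPKM (log2 fold change -0.39, limma adjusted p = 0.148), and it was called lower with sample weights (0.0241). Taf12 was 7.65 ± 0.60 and 7.0 ± 0.79 FPKM (log2 fold change -0.12, limma adjusted p = 0.616). Annotated exons of other genes cover 13.6% of the exonic bases of Taf1d and 19.0% of those of Tbp.

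The catalytic core subunits were not called. Polr1a (chr6:71909053-71984935, plus strand), the largest subunit, with most of the active site, measured 11.2, 7.60, 12.2 and 12.3 FPKM after Scr-MO and 6.30, 8.24, 8.44 and 9.89 FPKM after Med13-MO. Scr-MO library 2 lay inside the Med13-MO range and the other 3 controls lay above it. The log2 fold change was -0.35 ± 0.19 (limma adjusted p = 0.210), and it passed the threshold only when Scr-MO library 2 was left out (-0.50, adjusted p = 0.0496) or libraries were weighted (-0.46, adjusted p = 0.0167). Polr1b (chr2:129100995-129126594, plus strand), the second-largest subunit, ranged from 4.77 to 8.80 FPKM after Scr-MO and from 3.21 to 7.03 after Med13-MO (log2 fold change -0.26 ± 0.24, limma adjusted p = 0.485).

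Polr1c and Polr1d form the dimer on which the core assembles, and RNA polymerase III uses the same pair. Polr1c (chr17:46243920-46248054, minus strand) measured 56.4, 40.0, 52.0 and 40.1 FPKM after Scr-MO and 37.4, 46.0, 57.1 and 56.9 FPKM after Med13-MO (log2 fold change 0.06 ± 0.19, limma adjusted p = 0.845). Polr1d (chr5:147077050-147111597, plus strand) measured 52.5, 51.4, 65.1 and 56.1 FPKM after Scr-MO and 42.2, 60.1, 68.7 and 67.2 FPKM after Med13-MO (log2 fold change 0.06 ± 0.18, limma adjusted p = 0.840). The groups overlapped for both. Their 95% intervals, -0.35 to 0.47 and -0.33 to 0.46 on the log2 scale, leave room for moderate changes either way.

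Polr1e (ENSMUSG00000028318, chr4:45018583-45036565, plus strand) encodes PAF53, which forms a dimer on the outside of polymerase I. It measured 24.0, 16.4, 38.0 and 34.1 FPKM after Scr-MO and 12.0, 15.3, 17.2 and 20.4 FPKM after Med13-MO. The groups overlapped through Scr-MO library 2, which lay inside the Med13-MO range. The log2 fold change of the summed level was -0.71 ± 0.25 (95% interval -1.25 to -0.17; limma adjusted p = 0.0669). It was called without Scr-MO library 2 (-0.94, adjusted p = 0.0130), without Med13-MO library 4 (-0.83, adjusted p = 0.0471) and under 3 other settings, and it was -0.17 (adjusted p = 0.658) when only its most abundant transcript row was used.

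The remaining subunits found only in polymerase I were lower in 2 of 3 cases. Cd3eap (POLR1G, also called CAST or PAF49), the partner of PAF53, fell from 9.56, 11.3, 9.83 and 8.75 FPKM to 3.79, 4.85, 6.89 and 5.31 FPKM. Every Med13-MO library was below every control library (log2 fold change -0.83 ± 0.17, limma adjusted p = 0.00828), and the call held with each library left out. Exons of Ercc1 cover 4.25% of its exonic bases. Twistnb (POLR1F), a subunit of the stalk that touches RRN3, fell from 22.1, 31.6, 28.8 and 23.0 FPKM to 10.8, 17.3, 17.3 and 17.7 FPKM. Its groups did not overlap either (log2 fold change -0.72 ± 0.19, limma adjusted p = 0.0245), but the call was lost without Scr-MO library 3 (adjusted p = 0.0703), Med13-MO library 1 (0.0517) or Med13-MO library 2 (0.0528), and without the filter on low values (0.0796). Znrd1 (POLR1H), a small subunit needed for RNA cleavage, was 35.8 ± 3.16 and 47.5 ± 15.5 FPKM (log2 fold change 0.34, limma adjusted p = 0.320) and was called higher without Med13-MO library 1 (0.57, adjusted p = 0.0445). Of the 8 subunits that are not shared with polymerase II, Cd3eap and Twistnb were thus the called ones, both lower. Over all genes 17.1% were called, 7.81% lower. The 5 subunits shared by all 3 polymerases (Polr2e, Polr2f, Polr2h, Polr2k and Polr2l) had log2 fold changes from -0.35 to 0.04, and none was called by limma, with or without adjustment.

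**Figure D2:**
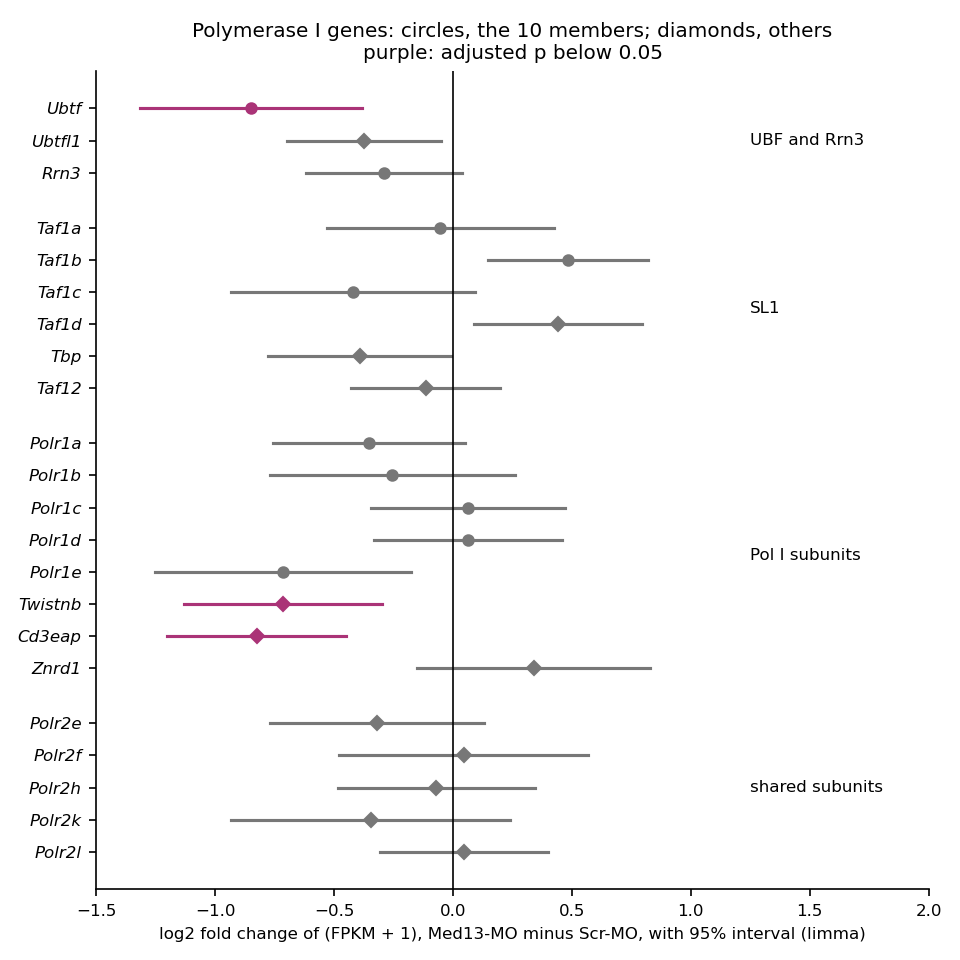
Log2 fold change of (FPKM + 1), Med13-MO minus Scr-MO (horizontal axis), with limma 95% intervals for the 10 genes (circles) and for related genes (diamonds), grouped by role. Purple marks an adjusted p below 0.05, reached by Ubtf, Twistnb and Cd3eap, all below 0; Taf1b and Taf1d are the highest values, at 0.48 and 0.44.

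The upstream sequences of the 3 called genes of the polymerase I machinery are given because these 3 moved in the same direction. They are the 250 bases before a RefSeq start site (GRCm38.p6) that hold no annotated exon, and for Ubtf, which has several start sites, the window with the most matches is shown. Capitals mark matches on either strand to the GC box (GGGCGG), the CCAAT box, the TATA box (TATAAA), the E-box (CACGTG) or the ETS motif (CCGGAAG), which do not overlap one another here.
Ubtf, chr11:102317872-102318121, minus strand: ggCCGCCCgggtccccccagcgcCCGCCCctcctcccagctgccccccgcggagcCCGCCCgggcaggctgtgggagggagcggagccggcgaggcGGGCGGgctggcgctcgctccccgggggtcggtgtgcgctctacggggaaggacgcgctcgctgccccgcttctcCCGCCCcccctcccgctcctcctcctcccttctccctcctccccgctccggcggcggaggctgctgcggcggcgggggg
Twistnb, chr12:33429374-33429623, plus strand: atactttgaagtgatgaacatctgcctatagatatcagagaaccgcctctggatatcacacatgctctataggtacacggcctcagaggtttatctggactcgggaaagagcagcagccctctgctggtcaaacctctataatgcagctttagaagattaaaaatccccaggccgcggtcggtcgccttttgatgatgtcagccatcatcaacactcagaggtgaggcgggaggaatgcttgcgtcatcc
Cd3eap, chr7:19359484-19359733, minus strand: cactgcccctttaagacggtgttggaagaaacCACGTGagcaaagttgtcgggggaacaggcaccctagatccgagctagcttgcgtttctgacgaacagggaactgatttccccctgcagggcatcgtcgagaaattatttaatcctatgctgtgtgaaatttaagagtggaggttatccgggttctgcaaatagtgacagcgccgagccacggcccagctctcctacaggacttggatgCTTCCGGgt

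The 3 windows share none of the 5 motifs. The Ubtf window has 82.0% G and C and 5 GC boxes, the Twistnb window has 49.2% and no match, and the Cd3eap window has 52.4%, 1 E-box and 1 ETS motif. Over 32851 windows of the same length, 32.7% held a GC box, 33.8% a CCAAT box, 12.4% a TATA box, 6.02% the E-box and 6.91% the ETS motif. These are matches of letters only. The Ubtf window was picked for its matches, so its GC boxes cannot be set against the share of all windows. Other Ubtf windows without an exon had 46.0% to 73.6% G and C and 0 to 4 GC boxes, and the one at 46.0% held 1 CCAAT box.

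The table lists values per transcript model, and 36 of the 50 rows of the 10 genes reached a mean of 1 FPKM. Of all transcript rows tested, 15.7% were called, 7.57% lower and 8.17% higher. Of the 36 rows, 10 were lower and none was higher (limma, adjusted over all transcript rows). They belonged to Ubtf (8 of its 9 tested rows) and Polr1e (2 of 6). Rows of one gene share exons, and no source used here states how shared fragments were divided, so rows are not independent of each other and the number of called rows is not a number of separate changes. The count fell to 4 without Scr-MO library 1, 3 without Scr-MO library 3, 3 without Med13-MO library 1 and 2 without Med13-MO library 2.

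Rows of both kinds of Ubtf model were lower. The models share exons, and how shared fragments were divided is not stated, so these rows may follow the gene total. They need not measure UBF1 and UBF2 separately, and fragments over the exon itself were not counted. The 4 models with the 111-base exon had means of 1.57 to 3.02 FPKM after Scr-MO and 0.870 to 1.89 after Med13-MO, and 3 of the 4 were called lower (log2 fold changes -0.61 to -0.47). The 5 models without the exon had means of 2.61 to 2.81 and 1.42 to 1.70 FPKM, and all 5 were called lower (-0.62 to -0.51). Ubtf-202, which has the exon, measured 2.92, 2.29, 3.14 and 2.70 FPKM after Scr-MO and 0.918, 1.24, 1.97 and 1.89 FPKM after Med13-MO (limma adjusted p = 0.0250). Ubtf-204, which lacks it, measured 3.07, 2.31, 2.88 and 2.58 FPKM and then 0.979, 1.29, 1.80 and 1.70 FPKM (limma adjusted p = 0.0155). In both rows every Med13-MO library was below every control library. Both calls were lost without Med13-MO library 2 (adjusted p = 0.0847 for Ubtf-202 and 0.0573 for Ubtf-204) and without a filter (0.0879 and 0.0546), and that of Ubtf-202 also without Scr-MO libraries 1 and 3 and Med13-MO library 1 (0.0577 to 0.0711). The row not called was Ubtf-210 (-0.49, limma adjusted p = 0.0868). A difference between the kinds of model was not tested.

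Within Polr1e the rows differed in size of change. Polr1e-201, a coding model of 14 exons that ends at 45032365, measured 3.81, 2.79, 6.78 and 5.60 FPKM after Scr-MO and 1.42, 1.81, 2.03 and 2.31 FPKM after Med13-MO. It fell with a log2 fold change of -0.94 (limma adjusted p = 0.0104), and no control library was as low as any Med13-MO library. Polr1e-207, a short noncoding model of 2 exons that starts at 45031262 and ends at 45032360, measured 5.15, 3.63, 6.11 and 5.58 FPKM after Scr-MO and 0.947, 1.62, 2.23 and 1.31 FPKM after Med13-MO. It fell with a log2 fold change of -1.28 (limma adjusted p = 0.00086). At the assumed step of 0.5 fragments, this row rests on 23.5 to 193 fragments per library. Both calls held with each library left out, but without a filter on low values Polr1e-201 was not called (adjusted p = 0.0599). Polr1e-204, a coding model of 12 exons with a longer last exon that ends at 45033692, measured 5.53, 3.54, 8.51 and 8.56 FPKM and then 4.10, 4.94, 5.85 and 7.12 FPKM. Its groups overlapped (log2 fold change -0.17, limma adjusted p = 0.667).

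The ratio of Polr1e-201 to Polr1e-204 was 0.689, 0.789, 0.797 and 0.655 after Scr-MO and 0.346, 0.367, 0.348 and 0.324 after Med13-MO. The 2 groups of ratios lay far apart. The corresponding ratio of Polr1e-202 was 0.657 to 0.798 and 0.490 to 0.543, and that of Polr1e-203 was 0.594 to 0.761 and 0.486 to 0.534. These ratios were chosen after the values were seen and were not tested.

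**Figure D3:**
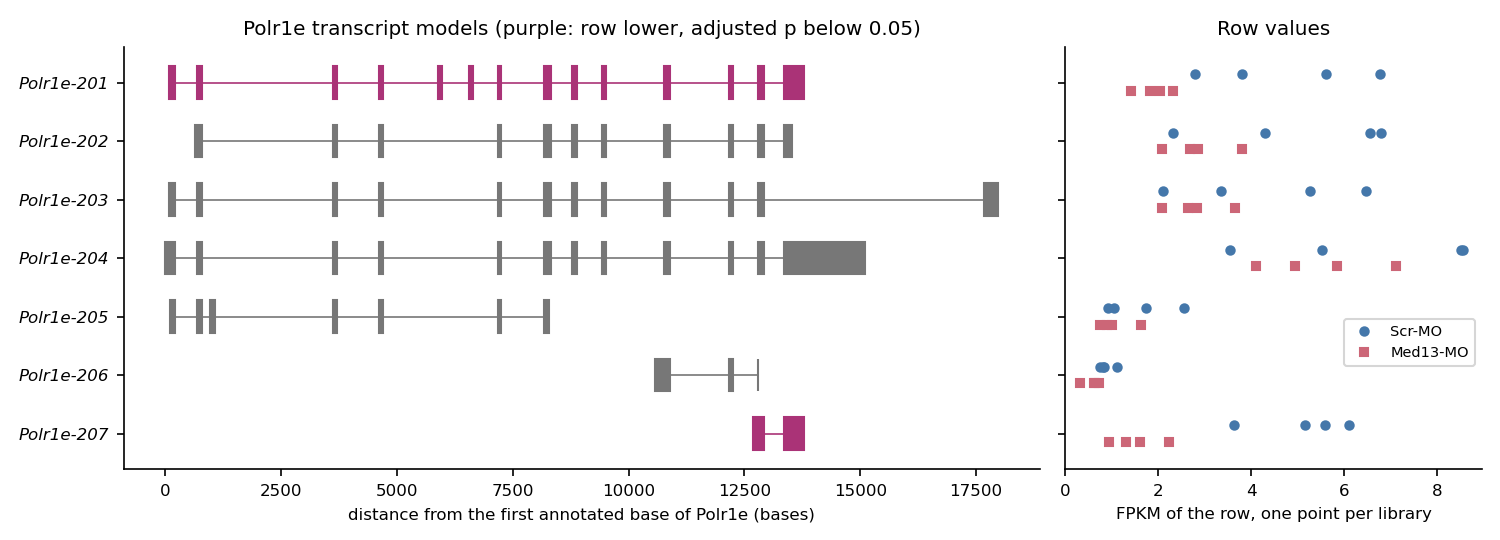
Left, the 7 annotated transcript models of Polr1e, with exons as boxes and the distance in bases from the first annotated base of the gene on the horizontal axis; purple models had a row called lower. Right, the FPKM of each row in the 4 Scr-MO libraries (blue circles) and the 4 Med13-MO libraries (red squares): the groups are separate for Polr1e-201, Polr1e-206 (under 1 FPKM and not tested) and Polr1e-207, and overlap for the other models.

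Across libraries the 10 genes tended to stand high or low together, in both groups. Med13-MO library 1 had the lowest value of its group for 9 of the 10 genes, with a median deviation from the 8-library mean of -0.50 on the log2(FPKM + 1) scale, beside -0.12 for all genes tested. Scr-MO library 2 had the lowest value of its group for 8 of the 10 (median deviation -0.19, all genes -0.16). Scr-MO library 3 was the highest control for 6 genes and Med13-MO library 4 the highest of its group for 7. The summed level of the 10 genes was 210 to 295 FPKM after Scr-MO and 168 to 269 FPKM after Med13-MO, and these ranges overlapped. The part of these library differences in the results was not tested, beyond the values given with a library left out.

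**Figure D4:**
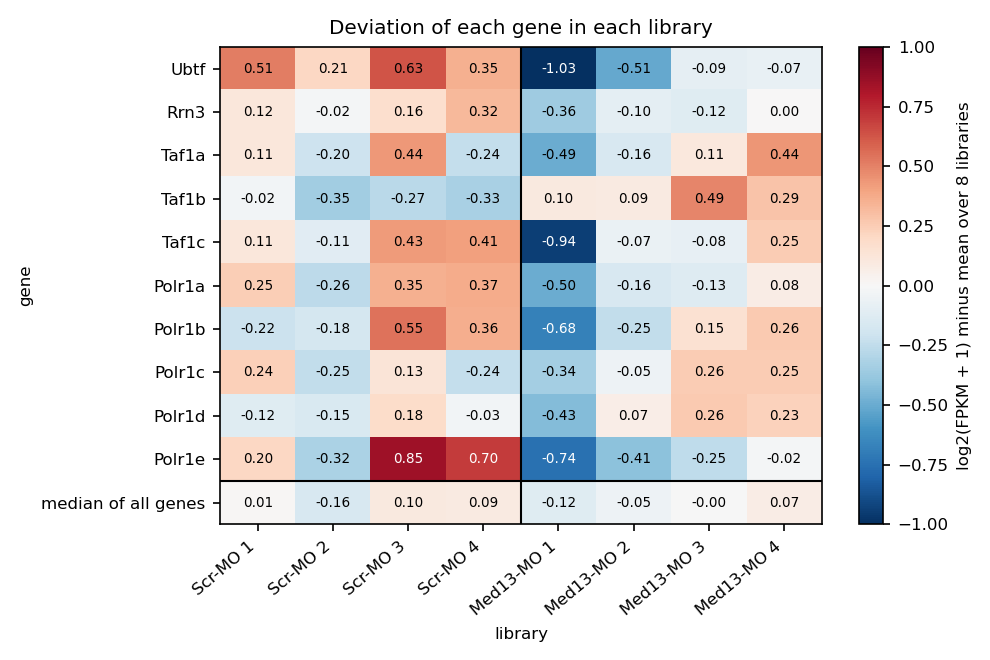
Deviation of each gene in each library from its mean over the 8 libraries, in log2(FPKM + 1), with genes in rows, libraries in columns and the median of all genes tested in the last row. Red is above and blue below the mean; Med13-MO library 1 is lowest of its group for 9 of 10 genes, and Ubtf is the one row that is above its mean in all 4 controls and below it in all 4 Med13-MO libraries.

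Levels were compared between genes on the FPKM scale with the most abundant row of each gene, because summing rows may count a shared fragment several times. After Scr-MO the order was Polr1d (44.4 ± 4.89 FPKM), Rrn3 (36.9 ± 3.76), Polr1c (24.0 ± 6.70), Taf1a (18.5 ± 4.36), Polr1a (10.8 ± 2.21), Taf1b (9.0 ± 1.07), Polr1e (6.53 ± 2.45), Polr1b (3.30 ± 1.11), Ubtf (3.02 ± 0.58) and Taf1c (1.42 ± 0.38; SD, n = 4 each). Neighbours whose ranges did not overlap were Rrn3 and Polr1c, Taf1a and Polr1a, and Ubtf and Taf1c. After Med13-MO the order was the same except that Taf1b (13.0 ± 1.87 FPKM) stood above Polr1a (8.22 ± 1.47). The place of Ubtf depends on this choice, since its 9 longest rows have similar values and sum with the short ones to 25.1 FPKM.

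The genes whose profile over the 8 libraries was most like that of Ubtf were sought among 4588 genes, those of the 5535 with a mean of at least 5 FPKM that do not have predicted or clone names, by the root mean square difference of centred log2(FPKM + 1). They were Dnajc2 (0.12), a ribosome-associated chaperone, Nr5a2 (0.12), a nuclear receptor of the early embryo, and Ewsr1 (0.13), an RNA-binding protein. For Rrn3 they were Tasp1 (0.052), Gmeb1 (0.056) and Bzw1 (0.062). Among the members with a mean of at least 5 FPKM, Polr1e was nearest to Ubtf, at rank 367, and Polr1a nearest to Rrn3, at rank 201. Taf1c, with a mean of 2.97 FPKM, was not compared, so it may be nearer than these. These likenesses are descriptions over 8 libraries that hold both groups.

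Beside the 10 members, 41 of 42 listed genes of the polymerase I pathway were tested, namely the other and shared subunits, the rest of SL1, regulators of ribosomal DNA and the processome proteins linked to its transcription. Of these, 7 were lower and 1 was higher, with a median log2 fold change of -0.28 and 29 of 41 below 0. These 8 calls of 41 were near the 17.1% called over all genes in either direction. Over all genes tested 7.81% were called lower and 9.29% higher, and 55.5% were below 0. The lean of the pathway calls to lower values was not tested. The count of 8 fell to 3 without Scr-MO library 3, 3 without Med13-MO library 2 and 4 without Med13-MO library 3. None of the 6 processome proteins was called by limma, and their median was -0.29. At an unadjusted limma p below 0.05 there were 2, beside 32.4% of all genes.

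The regulators are 24 of the 41 genes, and 6 of these 24 were called, 5 lower and 1 higher. Over all genes 17.1% were called, 7.81% lower and 9.29% higher. Smarca5 (SNF2H), the ATPase of the nucleolar remodelling complex that silences ribosomal DNA and of other remodellers, fell from 132, 125, 147 and 151 FPKM to 61.6, 51.4, 68.7 and 94.2 FPKM (log2 fold change -1.03 ± 0.19, limma adjusted p = 0.00447). Its groups were far apart. Ercc6 (CSB), a repair ATPase also found at ribosomal DNA, fell from 4.83 ± 0.39 to 2.92 ± 0.17 FPKM (-0.57, limma adjusted p = 0.0145), and both calls held with each library left out. Sirt1, a deacetylase that acts in ribosomal DNA silencing, fell from 54.0 ± 6.38 to 34.8 ± 4.76 FPKM (-0.62, limma adjusted p = 0.0211), but this call was lost without Scr-MO library 3, Med13-MO library 2 or Med13-MO library 3 (0.0542 to 0.0629) and without a filter (0.0556). Kdm2b, a histone demethylase, rose from 11.1 ± 0.55 to 16.4 ± 2.10 FPKM (0.51, limma adjusted p = 0.0314), but this call was lost in 6 of 8 fits with a library left out, those without Scr-MO libraries 1, 3 or 4 or Med13-MO libraries 2, 3 or 4 (0.0524 to 0.0803), without a filter (0.0577), and with the most abundant row only (0.30, 0.104). Annotated exons of other genes cover 8.74% of the exonic bases of Kdm2b. The other 2 calls, given to complete the count, were Ttf1, the polymerase I termination factor (-0.51, limma adjusted p = 0.0355), and Top1, a topoisomerase (-0.79, 0.0484). Each was lost in 7 of 8 such fits, Ttf1 in all but the one without Scr-MO library 2 (0.0507 to 0.103) and Top1 in all but the one without Scr-MO library 4 (0.0586 to 0.117). Without a filter both were lost as well (0.0693 and 0.161), and Top1 also with median-ratio (0.112) or quantile (0.0675) scaling, a pseudocount of 0.1 (0.0504) or the most abundant row (0.0651). The regulators that fell include genes known to silence ribosomal DNA as well as genes known to promote its transcription.

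Of 21 tested polymerase III genes, which make transfer RNA and 5S RNA, 4 were lower (Polr3f, Polr3g, Bdp1 and Gtf3c3) and none was higher, with a median log2 fold change of -0.26 and 20 of 21 below 0. Over all genes 17.1% were called in either direction, 7.81% lower, and 55.5% were below 0. The 4 calls of 21 were near the share called over all genes in either direction. All 4 were lower, a direction called for 7.81% of all genes, and this lean was not tested. Bdp1, a TFIIIB component, fell from 26.4 ± 4.49 to 15.3 ± 2.72 FPKM (-0.75, limma adjusted p = 0.0137), but this call was lost without Med13-MO library 2 (0.0524). Polr3f (-0.56, limma adjusted p = 0.0194), Polr3g (-0.53, 0.0433) and Gtf3c3 (-0.58, 0.0452) lost theirs in 3, 6 and 6 of 8 such fits, each time including those without Scr-MO library 3, Med13-MO library 2 and Med13-MO library 3 (up to 0.14), and for Polr3g and Gtf3c3 also those without Scr-MO library 1, Scr-MO library 4 and Med13-MO library 1. Polr3g and Gtf3c3 were also lost without a filter (0.098 and 0.118) and with the most abundant row (0.0733 and 0.0774). Of 8 tested genes listed for polymerase II alone, core subunits and the associated protein Polr2m, 2 were higher and none was lower. The shares over all genes were 9.29% higher and 7.81% lower, 17.1% in either direction. Polr2g rose from 4.80 ± 0.66 to 11.3 ± 1.81 FPKM (1.08, limma adjusted p = 0.00138), a call that held with each library left out, and Polr2j rose from 38.9 ± 3.40 to 56.7 ± 7.91 FPKM (0.53, limma adjusted p = 0.0396), a call lost in 6 of 8, those without Scr-MO libraries 1, 3 or 4 or Med13-MO libraries 2, 3 or 4 (0.0622 to 0.131), and without a filter (0.0862). Exons of Lrwd1 cover 15.9% of the exonic bases of Polr2j. Differences between the lists were not tested.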

How the data were processed

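The authors deposited 1 table of FPKM values with 97496 rows, each a transcript and its gene symbol. Per the submitters' processing notes, BWA and the mm10 build were used. Counting method, annotation release and use of strand: not given in the sources used here. In 3758 rows, those whose symbol has a hyphen, values are moved by 1 column, and these rows were left out (none belongs to a member), so the column of Scr-MO library 1 holds text there. Multiplied by transcript length, low values fell on regular steps, and 1 step was taken to be 0.5 fragments. On that scale 94.3% to 94.5% of values of up to 20 fragments in a library lay within 0.005 of a multiple of 0.5 fragments. The size of the step was assumed, and the library totals and fragment numbers given here depend on it. The reads carry no molecular identifiers and RNA was amplified (Ovation RNA-Seq System V2). Rows were summed per symbol. The test was limma 3.58.1 (R 4.3.3) on log2(FPKM + 1), with these settings (mean-variance trend, two-sided, no covariate, mean of at least 1 FPKM, Benjamini-Hochberg adjustment over all genes or all transcript rows). Fold changes on this scale understate those of low genes. Replicates are separate embryo pools.

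Named were all members, Med13, the other and shared subunits, the rest of SL1, Ubtfl1, up to 4 called genes of each further list by smallest adjusted p, and the 3 nearest profiles of Ubtf and Rrn3. Members and lists were chosen with earlier results of these data known. Alternatives were another pseudocount (0.1), no filter, a mean of at least 5 FPKM, median-ratio and quantile scaling, sample weights, no trend, the most abundant row and each library left out.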

Additional observations from a re-analysis of the deposited data

Results flagged for a closer look

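Twistnb, the stalk subunit of polymerase I, measured 10.8 FPKM in Med13-MO library 1, far below the other 3 libraries of its group (17.3 to 17.7 FPKM). The gap was 0.94 of the group's range, above Dixon's 95% critical value for 4 samples. It was 1 of 44 groups of 4 so examined, of which about 1 in 20 would be picked out by chance. The same library had the lowest value of its group for 9 of the 10 members, and Twistnb without it is at -0.56 (limma adjusted p = 0.0517).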

How the results depend on the processing

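The main counts were 2010 called genes, 1 called member, 8 called genes in the rest of the polymerase I pathway and 10 called member rows. Without a filter they were 1012, 0, 3 and 2. With a mean of at least 5 FPKM they were 1137 genes, 2 members and 1 row. With sample weights they were 4336 genes, 5 members (Ubtf, Rrn3, Polr1a, Polr1e and Taf1b) and 23 pathway genes. Members called were 3 with median-ratio size factors, 3 with quantile normalization, 2 with no trend and 0 with the most abundant transcript row only. With 1 library left out the ranges were 975 to 2406 genes, 0 to 3 members, 3 to 9 pathway genes and 2 to 12 rows. The share of calls that were higher was 54.3%, and it was 39.5% with sample weights and 43.6% without Scr-MO library 2. Ubtf kept its direction under all 16 alternatives (log2 fold change -0.97 to -0.49) and its call under 12; besides the 2 left-out libraries, it was lost without a filter (limma adjusted p = 0.0748) and with the most abundant row (0.0879). Signs turned, in fits with 1 library left out, for Med13 (-0.00105 without Scr-MO library 3), and for 6 genes whose values over these fits ran from -0.014 to 0.18 (Polr1c), -0.014 to 0.22 (Polr1d), -0.21 to 0.10 (Taf1a), -0.11 to 0.29 (Polr2f), -0.21 to 0.053 (Polr2h) and -0.034 to 0.15 (Polr2l). The cause was not tested. No paired analysis was run because the labels state no pairing. The library numbers used here follow the order of the samples within each group and are not from the labels. The numbered library names alternate between the groups, and whether neighbours were paired is not stated.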
